A study of Oreochromis niloticus with 12 samples.

Results

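The genes cebpb, klf9, ddit4 and trib3 of the Nile tilapia (Oreochromis niloticus) are described here in fast muscle of domesticated and wild fish. They are 4 of the 42609 genes in the deposited tables, 31551 of which had at least 1 count. They were found by their gene symbols and were chosen by their lower counts in domesticated fish in earlier results of these data, so the difference between the groups is given as a description without a test.

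The samples were fast muscle of 6 domesticated and 6 wild females at 5 months of age. Domesticated fish were of the first generation kept under domestication, and each corresponded to a wild progenitor, so that for example D53 and W53 are the domesticated and the wild fish of pair 53. The other pairs carried the numbers 63, 66, 68, 70 and 72. Total RNA was depleted of ribosomal RNA, and strand-specific libraries were sequenced on 1 lane. Domesticated and wild fish differed in generation and in rearing at once, and these cannot be told apart. In bulk muscle, fewer cells of a type and less RNA per cell cannot be told apart either.

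Glucocorticoids such as cortisol, the main stress hormone of fish, enter cells and bind the glucocorticoid receptor, which moves into the nucleus and switches genes on or off. In skeletal muscle of mammals prolonged glucocorticoid exposure slows protein synthesis and raises protein breakdown, and Klf9 and Ddit4 are among the genes the receptor induces. A separate route, the integrated stress response, is set off by amino acid shortage or unfolded proteins, acts through the transcription factor ATF4, and induces Trib3 in mammals. Ddit4 lies on both routes. The C/EBP factors, to which Cebpb belongs, take part in each.

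The libraries held 4312367 to 8478988 gene counts in domesticated fish (median 7005192.5) and 3395622 to 8472454 in wild fish (median 6245112). Levels are normalised read counts (CPM, counts relative to a library total scaled by TMM, a trimmed mean of log ratios between libraries), which allow a gene to be compared between libraries but not with another gene, since they are not per length. The scaling factors were 0.614 to 1.29 in domesticated and 0.678 to 1.81 in wild libraries. Fast muscle markers were abundant, as the tissue label requires, with a summed level of 168279 to 395647 CPM in domesticated and 64984 to 369925 CPM in wild fish, W66 and W70 being the lowest, and 0 of the 14 tested were called in either direction in limma (2 higher and 1 lower at an unadjusted p under 0.05). In the fit over 8425 tested genes (limma, Benjamini-Hochberg adjusted p under 0.05), 6.5% of genes were called lower (548) and 6.69% higher (564) in domesticated fish. That balance depended on the scaling, with 593 lower and 87 higher when totals were not scaled and 790 lower and 147 higher when the 10 most abundant genes were left out of the totals, and the median log2 fold change of all genes was then -0.42 and -0.35 in place of -0.02. All 4 genes of interest were among those called lower, which their choice fixed and from which nothing is read.

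The genes lie on 4 linkage groups of the assembly O_niloticus_UMD_NMBU, and each has 1 annotated transcript and is protein-coding. cebpb spans positions 10012685 to 10014254 of linkage group 20 and klf9 spans 14188653 to 14192109 of linkage group 12. ddit4 spans 12138224 to 12140061 of linkage group 8, where it overlaps dnajb12b. trib3 spans 11867746 to 11874300 of linkage group 5, where it overlaps atrip. The annotation used here gives no strand for these spans. atrip had 0 counts in all 12 libraries. dnajb12b had 2.46 to 27.1 CPM in domesticated and 1.27 to 16.3 CPM in wild fish, a log2 fold change of 1.41 (limma adjusted p = 0.140) with the opposite sign to ddit4.

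The first gene, cebpb, encodes a basic leucine zipper transcription factor that in mammals is induced by glucocorticoids, cytokines and cell stress. In domesticated fish cebpb ranged over 16.6 CPM in D68, a median of 21.1 CPM and 33.8 CPM in D66. In wild fish it ranged over 32.1 CPM in W72, a median of 167.6 CPM and 380.1 CPM in W66. The domesticated libraries lay close together and the wild libraries were spread widely, and the groups met at 1 point, where D66 exceeded W72. The log2 fold change was -2.69 ± 0.49 (SE), or 6.45-fold higher in wild fish. The wild excess was 17.5-fold in pair 70 and 14.2-fold in pair 68, and was 1.5-fold in pair 72. W66 and W70, the wild libraries with the most cebpb, had the lowest fast muscle marker sums, and over the 12 group-centred libraries cebpb had r = -0.42 with that sum (permutation p = 0.320, adjusted p = 0.821, rho 0.09, permutation p = 0.830), which was 0.12 without the 2 farthest libraries.

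klf9 encodes a zinc finger factor of the Krüppel-like family that in mammals is a direct target of the glucocorticoid receptor. In domesticated fish klf9 ranged over 16.9 CPM in D63, a median of 30.4 CPM and 91.4 CPM in D66. In wild fish it ranged over 85.4 CPM in W63, a median of 198.8 CPM and 362.6 CPM in W53. D66 and D53 were the high libraries of the domesticated group, and only D66 reached the level of the lowest wild libraries, W63 and W72. The log2 fold change was -2.34 ± 0.48 (SE), or 5.06-fold higher in wild fish. The pairs differed least here among the 4 genes (SD of the paired log2 differences 0.55, n = 6), with a wild excess between 2.65-fold in pair 66 and 8.05-fold in pair 68.

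ddit4, also known as REDD1, encodes an inhibitor of the growth kinase complex mTORC1. In domesticated fish ddit4 ranged over 5.38 CPM in D53, a median of 19.3 CPM and 57.8 CPM in D66. In wild fish it ranged over 16.9 CPM in W72, a median of 118.7 CPM and 236.6 CPM in W68. The overlap was the widest of the 4 genes, since 3 domesticated libraries exceeded W72, but it rested on that library, as the other 5 wild libraries had at least 93.4 CPM. The log2 fold change was -2.35 ± 0.62 (SE), or 5.09-fold higher in wild fish. The paired differences were the most uneven (SD 1.52, n = 6), with a wild excess of 19.6-fold in pair 53, 1.62-fold in pair 66 and 1.28-fold in pair 72. ddit4 was no longer among the genes called lower without W68, without W70, without D72 or without a filter on low counts. Its log2 fold change over the 12 fits that each left out a library was -2.86 to -2.0.

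trib3 encodes a pseudokinase that in mammals is induced by ATF4 and binds the insulin-signalling kinase AKT. In domesticated fish trib3 ranged over 1.77 CPM in D68, a median of 2.67 CPM and 19.7 CPM in D53. In wild fish it ranged over 17.4 CPM in W72, a median of 40.4 CPM and 117.0 CPM in W53. Domesticated fish fell into high and low values, D53 and D66 (12.2 CPM) being high and the other 4 between 1.77 and 2.96 CPM, and only D53 passed the lowest wild library. The log2 fold change was -3.22 ± 0.60 (SE), or 9.31-fold higher in wild fish. The wild excess was 24.2-fold in pair 68 and 4.89-fold in pair 66. The domesticated values rested on few reads, 292 over the 6 libraries and 8 in D68, against 2030 reads in wild fish.

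**Figure D1:**
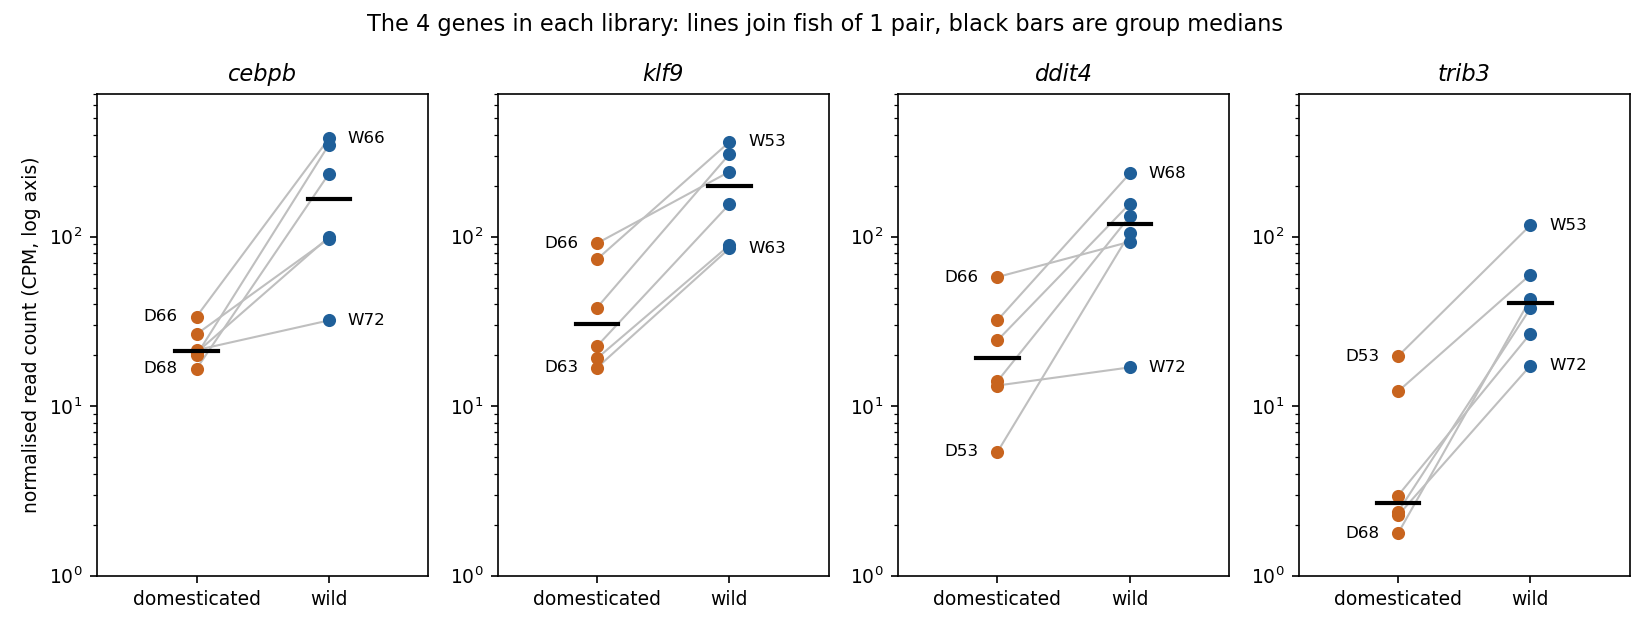
Normalised read counts (CPM, log axis) of cebpb, klf9, ddit4 and trib3 in 6 domesticated and 6 wild libraries; points are libraries, grey lines join the fish of a pair, black bars are medians, and the lowest and highest libraries are named. Each line runs upward to the wild fish, and in each gene at least 1 domesticated library lies above the lowest wild library, 3 of them in ddit4.

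Each of the 4 genes was lower in the domesticated fish of 6 of 6 pairs. Their choice by lower counts in domesticated fish favoured this sign, and nothing is read from it. The size of the difference depended on the pair and the gene. Pair 68 showed a large difference in each gene, between 7.36-fold and 24.2-fold higher in W68. Pair 72 had small differences in cebpb and ddit4, whereas klf9 was 4.65-fold and trib3 7.66-fold higher in W72. Pair 66 had a small wild excess of ddit4 (1.62-fold) and klf9 (2.65-fold) but an 11.3-fold wild excess of cebpb.

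**Figure D2:**
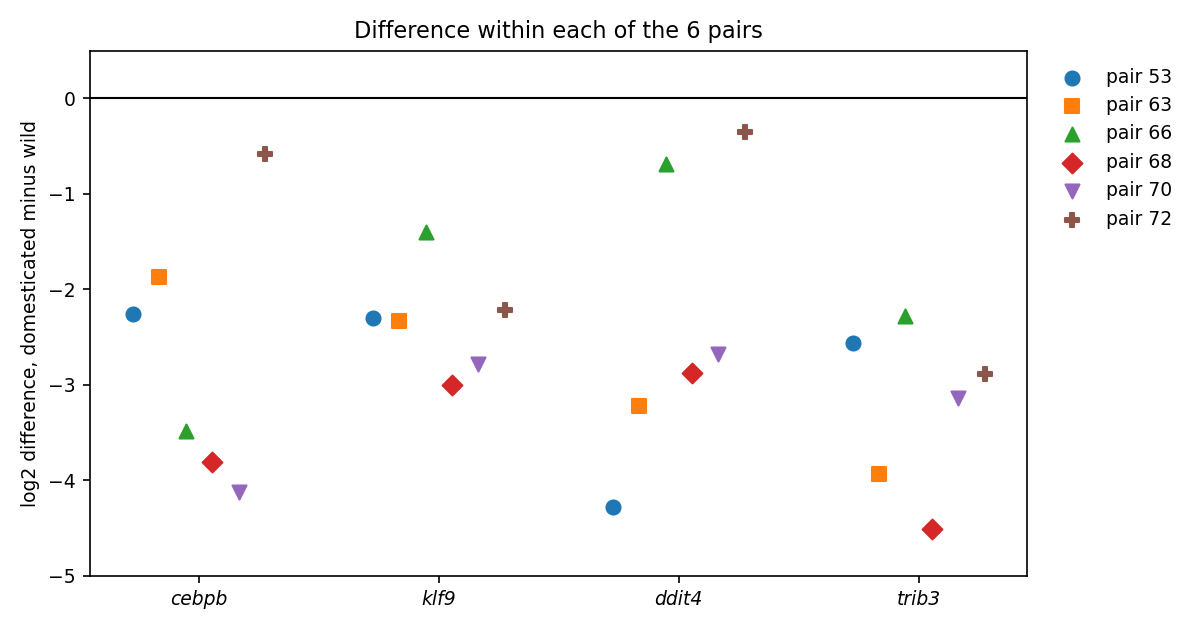
Log2 difference in normalised read count, domesticated minus wild, in each of the 6 pairs (symbols) for the 4 genes. No point reaches 0, and cebpb and ddit4 spread over a wider range (SD 1.36 and 1.52) than klf9 and trib3 (SD 0.55 and 0.85).

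Certain libraries stood at the edges of their groups. D66 was the highest domesticated library in 3 of the 4 genes and W72 the lowest wild library in 3 of the 4. Over all tested genes D66 was the highest domesticated library in 16.4% and W72 the lowest wild library in 13.7%. Over the same genes D53 and D70 were highest in 25% and 11.9%, and W63 and W70 lowest in 19.6% and 16%. D66 and W72 also stood out in the list of glucocorticoid targets described further on, where D66 was highest in 17 of 38 tested genes (44.7%) and W72 lowest in 16 of 38 (42.1%). In the list of ATF4 and unfolded protein response genes these shares were 24.4% and 22% of 41 genes, and other libraries held more (36.6% highest in D70 and 26.8% lowest in W63). In the receptor and chaperone list D53 was highest in 40% and D66 in 20% of 15 genes, and W72 and W70 were each lowest in 26.7%. fkbp5, a chaperone of the receptor and one of its best known targets in mammals, had 928.4 CPM in D66 and 96.2 to 205.2 CPM in the other 5 domesticated fish, against 197.3 CPM in W72 and 723.8 to 1219 CPM in the other 5 wild fish. For fkbp5 both D66 and W72 thus lay inside the range of the opposite group. What set these fish apart was not tested.

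Whether the 4 genes varied together between fish was a question their choice did not settle, and it was examined within each group over 6 libraries. Of the 12 correlations of log2 levels none passed an exact permutation test, before or after adjustment (lowest Benjamini-Hochberg adjusted p = 0.300). The 2 with the lowest p were both of klf9 with trib3, which had r = 0.84 in domesticated fish (exact permutation p = 0.0611, Spearman rho 0.54, exact p = 0.297, n = 6) and r = 0.78 in wild fish (exact permutation p = 0.0597, rho 0.77, exact p = 0.103, n = 6). Without the 2 libraries farthest from the median of klf9, r was -0.63 in domesticated fish, where the relation rested on D53 and D66, and 0.83 in wild fish. Each of these values came from 4 libraries, and those of the domesticated fish held 8 to 16 reads of trib3, too few to show a direction. For cebpb with ddit4, r was 0.33 in domesticated fish (exact permutation p = 0.531, n = 6) and 0.76 in wild fish (exact permutation p = 0.075, n = 6). Both values changed when 1 library was left out, to -0.44 in domesticated fish without D66 and 0.13 in wild fish without W72. Without the 2 libraries farthest from the median of cebpb, r was -0.68 in domesticated fish (without D63 and D66). In wild fish it was 0.67 (without W66 and W72).

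When each gene was centred on its group mean and libraries were permuted within groups, klf9 and trib3 had r = 0.81 over 12 libraries (permutation p = 0.0044, adjusted p = 0.0265 over 6 gene pairs). This permutation took the fish of a pair as independent of each other. Between the fish of a pair, however, klf9 had r = 0.84 and trib3 r = 0.82, so that this p may be too small. Without the 2 farthest libraries, D53 and D66, r was 0.70, with the other values still centred on the means of the full groups. In domesticated fish alone r was -0.63 without the same 2 libraries, from the 4 libraries with 8 to 16 reads of trib3. The rank correlation was 0.66 (permutation p = 0.0382) and did not pass the adjustment (adjusted p = 0.229). cebpb and ddit4 had r = 0.60 (permutation p = 0.0473, adjusted p = 0.142), which fell to 0.36 without the 2 farthest libraries. The remaining 4 gene pairs had r between 0.07 and 0.38. Set among the 5758 genes that averaged 5 CPM or more, trib3 ranked 13th in likeness to klf9 and klf9 ranked 36th in likeness to trib3, whereas ddit4 ranked 2795th for trib3 and klf9 1015th for cebpb. Thus klf9 with trib3 was the closest couple, and ddit4 with trib3, both targets of ATF4 in mammals, was the loosest (r = 0.07).

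**Figure D3:**
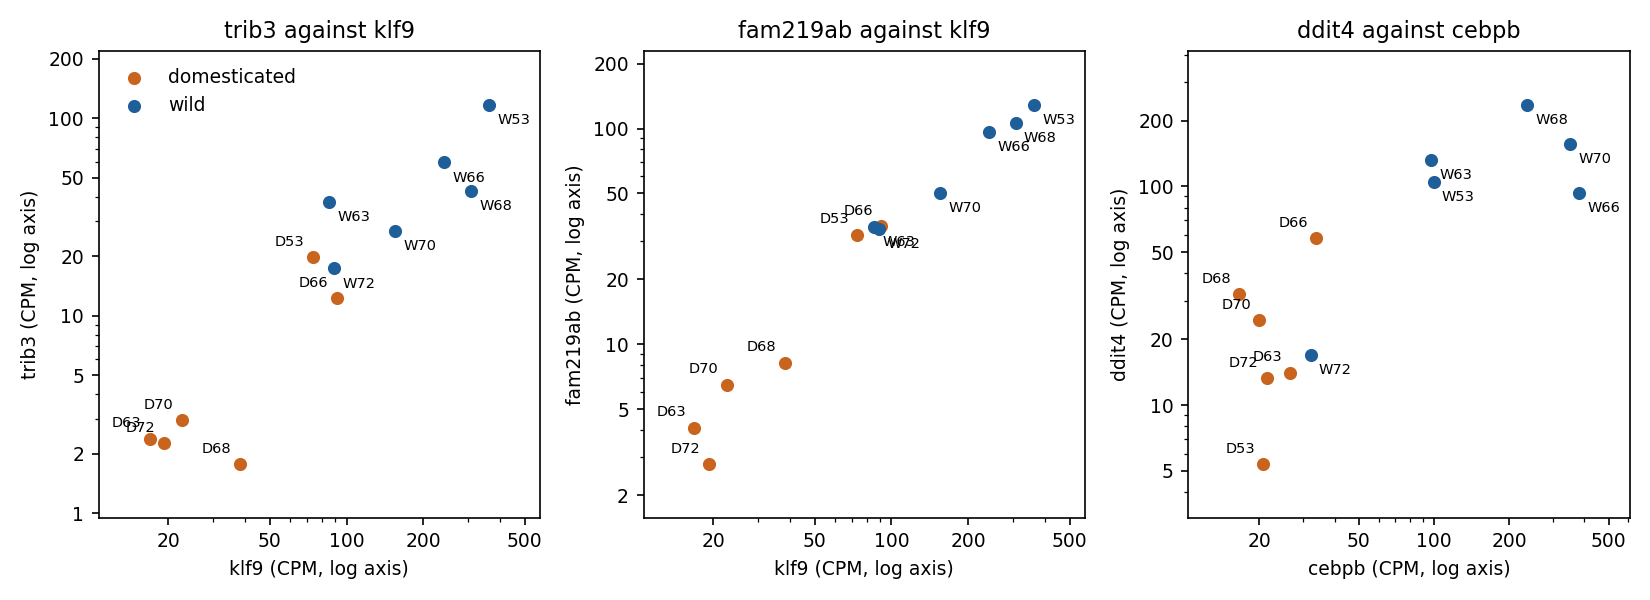
Normalised read counts (CPM, log axes) of trib3 against klf9, fam219ab against klf9 and ddit4 against cebpb; each point is a library, domesticated fish in orange and wild fish in blue. klf9 and fam219ab lie along 1 line in both groups. klf9 and trib3 do so more loosely, and among domesticated fish their relation rests on D53 and D66. cebpb hardly varies among domesticated fish while ddit4 does.

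The level of a domesticated fish was next set against that of its wild counterpart. Over the 6 pairs klf9 had r = 0.84 (exact permutation p = 0.0458, rho 0.83, exact p = 0.0583) and trib3 had r = 0.82 (exact permutation p = 0.0347, rho 0.60, exact p = 0.242). Neither passed adjustment over the 4 genes (adjusted p = 0.0917 for both), and r without the 2 farthest pairs was 0.63 for klf9 and 0.64 for trib3. cebpb had r = 0.15 and ddit4 had r = 0.26. Over all tested genes the median r between the fish of a pair was 0.05, and 1.91% of genes had an r at or above that of klf9 and 2.60% at or above that of trib3. Pairs 53 and 66 were the high ones for trib3 in both groups (19.7 and 12.2 CPM in D53 and D66, 117.0 and 59.8 CPM in W53 and W66). What the fish of these pairs shared was not tested.

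cebpb varied little among domesticated fish. Its mean absolute deviation from the group median was 0.25 log2 units in domesticated and 1.11 in wild fish, a difference of -0.86 (exact permutation p = 0.0087, adjusted p = 0.0346 over 4 genes). Of all 8425 tested genes 0.617% had a difference this low or lower, and the median was -0.05. The adjusted p stayed under the threshold without D66 alone, and without any other single library it was 0.0866 to 0.459, while the difference kept its sign (-0.95 to -0.51). The differences of klf9, ddit4 and trib3 were 0.10, 0.10 and 0.33 and did not pass (adjusted p = 0.868 for each by the exact permutation test). The values of cebpb rested on 802 reads in domesticated and 8251 in wild fish.

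The genes whose levels were most like those of each member were sought after centring on group means, so that the difference between groups did not enter. For klf9 the closest was fam219ab, with r = 0.96 over 12 libraries (0.97 in domesticated and 0.99 in wild fish). fam219ab is the neighbour of klf9, on linkage group 12 at 14192651 to 14202115, and its span begins 542 bases from that of klf9. It had 2.79 to 35.4 CPM in domesticated and 34.3 to 129.0 CPM in wild fish, highest in D66 and in W53, and fell by 2.78 on the log2 scale (limma adjusted p = 0.0114). Reads that run on from one gene into the next cannot be told apart from a transcript of fam219ab in gene counts. After fam219ab came eif4g2a (r = 0.89), a translation initiation factor, otud7a (r = 0.88), a deubiquitinase, and zfand5b (r = 0.86), a zinc finger gene whose mammalian counterpart is linked to protein breakdown in wasting muscle.

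For trib3 the closest gene was cebpg (r = 0.92), a small C/EBP partner that is itself induced in the ATF4 response in mammals. cebpg had 35.3 to 71.0 CPM in domesticated and 54.9 to 94.3 CPM in wild fish, highest in D53 and W53 as trib3 was, but its group difference was small (log2 fold change -0.47, limma adjusted p = 0.20). chmp1b (r = 0.90), a subunit of the membrane-cutting ESCRT machinery, and fam219ab (r = 0.88) were also among the 5 closest. For ddit4 the closest were stk35 (r = 0.96), a kinase gene, ppp1r27a (r = 0.92), a regulatory subunit of a phosphatase, mknk2b (r = 0.90), a kinase of the cap-binding factor eIF4E, and ahcy (r = 0.89), an enzyme of the methionine cycle. Of these stk35 was called lower in domesticated fish (log2 fold change -1.68, limma adjusted p = 0.0299), and ahcy was not called and had the opposite sign (0.77, adjusted p = 0.161). For cebpb the closest were mafbb (r = 0.94), a basic leucine zipper factor of the Maf family, mob3a (r = 0.94) and gapdhs (r = 0.94), and their r in domesticated fish alone was 0.68, 0.15 and 0.57. The r of fam219ab with klf9 and of stk35 with ddit4 was 0.96 under each of the 4 other scalings and pseudocounts run, and that of cebpg with trib3 was 0.83 to 0.92.

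Relatives of the 4 genes were examined to see whether their families moved as a whole. Of the 4 tested C/EBP genes other than cebpb, 0 were called in limma (2 lower at an unadjusted p under 0.05, 1 lower in limma voom), and their median log2 fold change was -1.21 against -0.02 for all tested genes. cebpd, which is induced with Cebpb in inflammation and glucocorticoid exposure in mammals, had 448.7 ± 314.0 CPM in domesticated and 981.9 ± 310.7 CPM in wild fish (SD, n = 6 each), a log2 fold change of -1.42 (limma adjusted p = 0.0673, and 0.0411 with the replicate block). It was lower in the domesticated fish of 6 of 6 pairs. cebp1 (-1.86, adjusted p = 0.0581 in limma), cebpa (-1.0, adjusted p = 0.212) and cebpg did not pass. cebpz had 0 counts and ddit3, which encodes the stress factor CHOP, had 1 count over the 12 libraries. Both have 3 annotated transcripts, and genes with several transcripts often had few or no counts in these tables, so that their levels cannot be read from them.

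In the Krüppel-like family 11 relatives of klf9 were tested, of which 1 was called lower (klf15) and 0 higher in limma, with a median log2 fold change of -0.56. At an unadjusted p under 0.05, 4 were lower and 1 was higher, and in limma voom 1 was lower and 0 were higher. For all tested genes the shares called in limma were 6.5% lower and 6.69% higher. klf15, another target of the glucocorticoid receptor in mammalian muscle, had 7.67 ± 3.10 CPM in domesticated and 21.5 ± 11.3 CPM in wild fish (SD, n = 6 each), a log2 fold change of -1.43 (limma adjusted p = 0.0303). Its call was lost in 4 of the 12 fits that each left out a library. klf13 (-1.23, adjusted p = 0.103 in limma), klf5a (-1.04, 0.0626), klf6a (-0.94, 0.0613, and 0.0437 with the replicate block), klf3 (-0.83, 0.192) and klf5b (-0.56, 0.231) had negative fold changes without passing. klf7b and klf17 were near 0 (-0.16 and -0.12), and klf2b, klf7a and klf4 had positive ones (0.63, 0.32 and 0.27) that did not pass either. klf13 reached 848.1 CPM in D66, above all wild libraries (at most 577.3 CPM). klf1, klf11a and klf12b had 60, 10 and 16 counts and were not tested.

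trib1 and trib2 are the tribbles relatives of trib3. trib1 had 44.9 ± 32.6 CPM in domesticated and 88.4 ± 26.6 CPM in wild fish (SD, n = 6 each), a log2 fold change of -1.22 (limma adjusted p = 0.0512, and 0.0268 with the replicate block), and was lower in 6 of 6 pairs. trib2 had a log2 fold change of -0.38 (limma adjusted p = 0.572).

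The receptor side of the pathway was measured unevenly. nr3c1, the glucocorticoid receptor gene, has 4 annotated transcripts and had 0 counts in all 12 libraries, so no level of the receptor can be read from these tables. The mineralocorticoid receptor gene nr3c2, whose protein also binds cortisol, had 8.65 ± 2.96 CPM in domesticated and 11.4 ± 2.49 CPM in wild fish (SD, n = 6 each), and did not pass (limma adjusted p = 0.272). Of 15 tested genes of the receptor, its cofactors and chaperones, 3 were called lower (20%) and 0 higher in limma. The shares over all tested genes were 6.5% and 6.69%. The list had 3 genes each way at an unadjusted p under 0.05, and its median log2 fold change was -0.12. dnajb1b, a co-chaperone of the heat shock response, was 14.9 to 22.8 CPM in domesticated and 31.0 to 624.9 CPM in wild fish without overlap (log2 fold change -2.94 ± 0.55, limma adjusted p = 0.00581). hsp90aa1.2, which encodes a form of the chaperone HSP90, was 10.6 to 15.8 CPM in domesticated and 15 to 310.1 CPM in wild fish (-2.49 ± 0.56, adjusted p = 0.0129 in limma), whereas its relative hsp90aa1.1 had a positive fold change that did not pass (0.59, 0.483). Both dnajb1b and hsp90aa1.2 were, like cebpb, nearly level among domesticated fish and spread in wild fish. fkbp5 was also called (-1.85 ± 0.53, limma adjusted p = 0.0339), but its call was lost in 10 of the 12 fits that each left out a library (highest adjusted p = 0.0770).

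Among genes known as glucocorticoid targets in mammals or fish, 12 of 38 tested were called lower (31.6%) and 0 higher in limma, with a median log2 fold change of -1.19. At an unadjusted p under 0.05 these counts were 23 lower and 0 higher, and in limma voom 11 lower and 0 higher. The shares called in limma over all tested genes were 6.5% lower and 6.69% higher. The glucocorticoid list was written with earlier results of these data known. The 4 with the lowest p were ampd3b, an AMP deaminase, with 1.64 ± 1.36 CPM in domesticated and 14.1 ± 6.52 CPM in wild fish (SD, n = 6 each), txnipa, a thioredoxin-binding protein that limits glucose uptake, socs3a, a brake on cytokine signalling, and zbtb16a, a zinc finger factor. Their log2 fold changes were -3.36, -1.86, -2.31 and -1.21 (limma adjusted p = 0.00303, 0.00392, 0.00401 and 0.0214), and each was lower in 6 of 6 pairs. The other 8 were sesn1, foxo1a, foxo3b, klf15, zbtb16b, fkbp5, dusp1 and fbxo32, of which fbxo32 encodes the muscle-wasting ubiquitin ligase atrogin-1 and dusp1 a phosphatase of stress kinases. The call of fbxo32 (limma adjusted p = 0.0495) was lost in 10 of the 12 fits that each left out a library, in limma voom (adjusted p = 0.0599) and under each of the 3 other scalings run. That of dusp1 (0.0404) was lost in 9 of the 12 fits and with the replicate block (0.0541). zbtb16b and foxo3b lost their calls in 6 of the 12 fits each and foxo1a in 2, while ampd3b, txnipa and socs3a kept theirs. The count of 12 changed with the libraries kept, to 3 without D72, 5 without D70, 7 without D68, 7 without W68 and 6 without W53. In the same fits and order, the number of all genes called lower fell as well, from 548 to 306, 297, 356, 372 and 481. Not all known targets moved. tsc22d3 (also known as GILZ) had a log2 fold change of -0.14 (limma adjusted p = 0.847), mt2 of 0.04 (0.935) and pdk4 of -0.14 (0.840). Of these tsc22d3 and pdk4 have several transcripts, as do the called ampd3b, socs3a and sesn1.

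In the ATF4 and unfolded protein response list genes were called in both directions. Of 41 tested genes 7 were called higher (17.1%) and 2 lower (4.88%), with a median log2 fold change of -0.20. Over all tested genes these shares were 6.69% and 6.5%, so the share called lower was near that of all genes. At an unadjusted p under 0.05 in limma, 11 genes were higher and 9 lower, and in limma voom 6 were called higher and 2 lower. The list did not count trib3 and ddit4, both ATF4 targets in mammals. The 4 higher genes with the lowest p were the tRNA synthetase genes nars1 (1.42, limma adjusted p = 0.00577) and lars1b (0.93, 0.0164), the endoplasmic reticulum co-chaperone gene dnajc3b (1.48, 0.0149) and cth, of cysteine synthesis (1.04, 0.0168). nars1 was 47.8 ± 19.7 CPM in domesticated and 17.3 ± 5.10 CPM in wild fish (SD, n = 6 each) and was higher in the domesticated fish of each pair. The calls depended on the scaling. When library totals were not scaled 0 of the 7 were called higher, although each kept a positive log2 fold change (0.44 for sars1 to 1.07 for dnajc3b), and 2 were called when totals left out the 10 most abundant genes. The 2 lower genes were atf3, an early stress factor, with 18.1 ± 10.5 CPM in domesticated and 108.6 ± 50.0 CPM in wild fish (-2.53, limma adjusted p = 0.00673), and jdp2b, a partner of ATF and JUN factors (-1.30, adjusted p = 0.0246). Over the 12 fits that each left out a library, the higher genes psph and sars1 lost their calls in 10 and 8. jdp2b lost its call in 3, and the other called genes of the list kept theirs. With the replicate block 4 genes of the list were called lower, slc7a3a and xpot being added. atf4b, a tilapia copy of the factor itself, had a log2 fold change of -0.62 (limma adjusted p = 0.121), and atf4a had 0 counts. chac1, a marker of ATF4 activity in mammals, had 678 to 1423 CPM in domesticated and 282 to 6842 CPM in wild fish (log2 fold change -0.06, adjusted p = 0.961 in limma), W63 being the highest and W70 the lowest.

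ddit4 acts on mTORC1 and trib3 on AKT, and genes of these kinase pathways were examined next. Of 21 tested mTORC1 genes 3 were called lower (14.3%, against 6.5% of all tested genes) and 1 higher (4.76%, against 6.69%). Their median log2 fold change was -0.20. The lower ones were sesn1, a stress-induced inhibitor of mTORC1 (-1.29, limma adjusted p = 0.0221), the autophagy kinase gene ulk2 (-1.32, 0.0346) and the Rag GTPase gene rragcb (-1.03, 0.0434, and 0.0810 with the replicate block). The higher one was eif4eb, a gene of the cap-binding initiation factor (1.02, limma adjusted p = 0.0302). Over the 12 fits that each left out a library, the call of rragcb was lost in 9, ulk2 in 6, eif4eb in 5 and sesn1 in 1. When totals were not scaled, eif4eb (limma adjusted p = 0.348) and rragcb (0.0669) were not called. The mtor, rptor and tsc2 genes have several transcripts and 3, 16 and 6 counts, and were not tested. The called ulk2 and sesn1 have several transcripts as well.

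In the insulin and AKT list 5 of 15 tested genes were called lower (33.3%) and 0 higher in limma, with a median log2 fold change of -0.70. At an unadjusted p under 0.05 these counts were 9 and 0. Among all tested genes 6.5% were called lower and 6.69% higher in limma. The receptor genes igf1ra and insrb had log2 fold changes of -1.61 and -1.26 (limma adjusted p = 0.00397 and 0.00565), the PI3-kinase subunit gene pik3cd of -1.28 (0.00900) and the transcription factor gene foxo1a of -1.71 (0.0223). igf1ra was 15.1 ± 3.66 CPM in domesticated and 49.4 ± 23.7 CPM in wild fish (SD, n = 6 each), with no overlap between 22.1 CPM, the highest domesticated value, and 26.0 CPM, the lowest wild value. The fifth gene was foxo3b. Over the 12 fits that each left out a library, foxo3b lost its call in 6 and foxo1a in 2, while igf1ra, insrb and pik3cd kept theirs. foxo1a and foxo3b are counted in the glucocorticoid list as well, and akt1 and akt2 had 10 counts each.

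**Figure D4:**
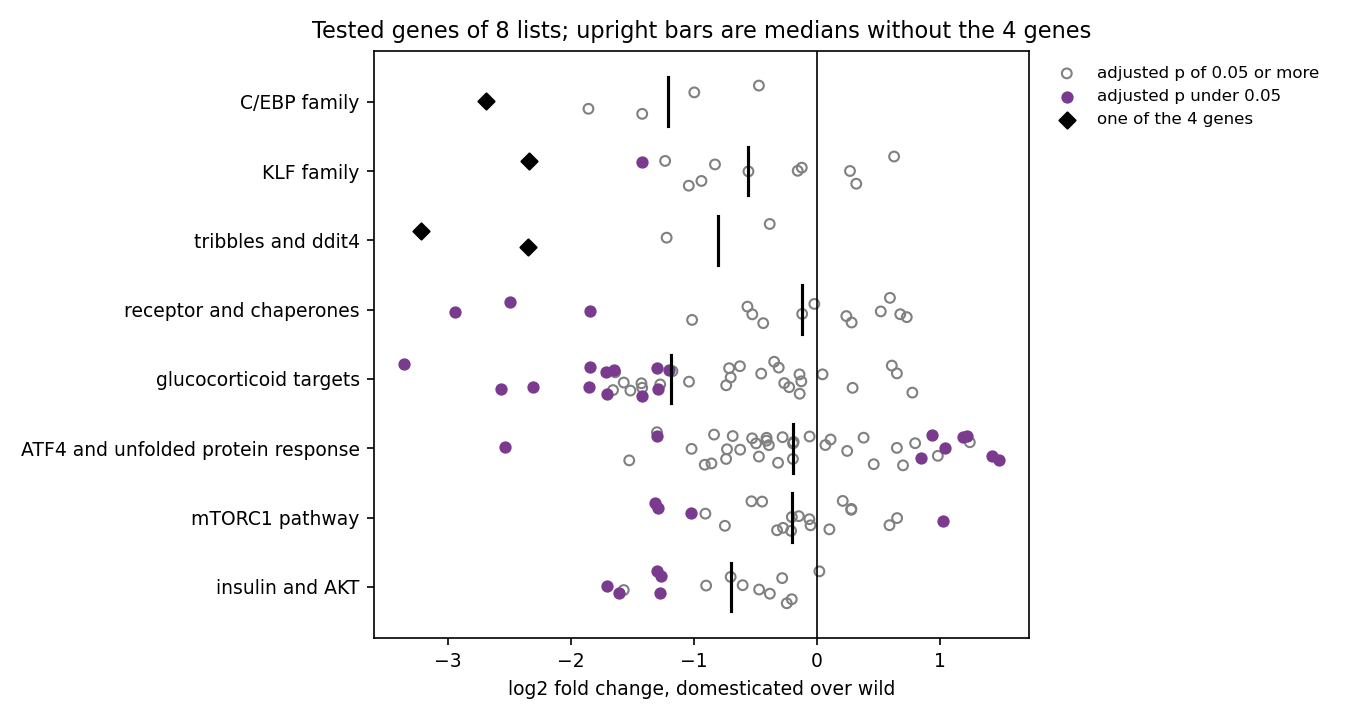
Log2 fold change, domesticated over wild, of the tested genes in 8 lists; black diamonds are cebpb, klf9, ddit4 and trib3, filled circles are other genes with an adjusted p under 0.05 in limma, open circles are the rest, and upright bars are list medians without the 4 genes. Called genes of the glucocorticoid and the insulin lists lie below 0 only, and those of the ATF4 list lie on both sides.

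Markers of cells other than fast fibres were measured beside these genes, with 6.5% of all tested genes called lower and 6.69% higher. Of the leukocyte list 3 of 14 tested genes were called lower (cd247, rac2 and ncf1) and 0 higher (1 at an unadjusted p under 0.05), while its summed level was 1414 to 4716 CPM in domesticated and 1015 to 2791 CPM in wild fish, and 6 markers, spi1a, spi1b and csf1ra among them, were at 0. That sum was mostly lcp1, with 2432 ± 1209 CPM in domesticated and 1278 ± 559 CPM in wild fish (SD, n = 6 each), whereas 12 of the 14 tested leukocyte markers had negative fold changes. Of the 24 annotated leukocyte markers 9 have several transcripts, and such genes often had few or no counts. A marker at 0 is thus not read as absent. Of the erythrocyte list 4 of 8 were called higher, with sums of 414.5 to 1356 CPM in domesticated and 235.9 to 834.5 CPM in wild fish. Over the 12 fits that each left out a library, rhag kept its call, whereas alas2, ank1a and cahz lost theirs in 10, 7 and 8. Of the fibroblast list 2 of 13 were called higher (sparc and col1a1b) and 1 lower (fbln1), with sums of 6024 to 29335 CPM in domesticated and 629.6 to 10231 CPM in wild fish. In the 12 fits sparc lost its call in 7, col1a1b in 8 and the leukocyte gene ncf1 in 8, while cd247 and rac2 kept theirs. Slow muscle had 2 of 4 called higher (casq2 and mb) and adipocytes 2 of 3 (dgat2 and fabp4a), and endothelium with 12 and nerve with 4 tested genes had 0 called in either direction in limma (3 higher and 1 lower, and 1 higher and 1 lower, at an unadjusted p under 0.05). Only 6 of the 12 fits tested dgat2 and only 6 tested fbln1, and both kept their calls in these. When totals were not scaled, alas2, cahz, mb, sparc, col1a1b and fabp4a were no longer called (limma adjusted p = 0.0569 to 0.411). In limma voom dgat2, ncf1 and col1a1b were not called (adjusted p = 0.0798, 0.0630 and 0.0536), and the other called markers kept their calls. The part of cells other than fast fibres in the levels of the 4 genes was not tested between groups. Within groups, the levels of the 4 genes were set against 13 measures of the libraries each. These 52 relations covered depth, unassigned reads, scaling and marker sums. None passed after adjustment (lowest adjusted permutation p = 0.821 for r and 0.569 for rho). Before adjustment trib3 (r = -0.67, permutation p = 0.0287) and klf9 (rho -0.69, permutation p = 0.0299) fell with the leukocyte sum. With the fibroblast sum trib3 had r = -0.56 (permutation p = 0.0336) and ddit4 rho 0.74 (permutation p = 0.0129).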

How the data were processed

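The authors deposited, for each library, whole-number read counts per annotated transcript with summary lines. Trimmomatic 0.33, STAR, HTSeq and edgeR are named in the submitters' processing notes; their settings were not stated in the paper or the labels. Reads without a feature (11.2% on average), ambiguous reads (13.4%) and reads placed at several sites (51.5%) stayed out of totals. Transcript rows were summed per gene (80392 rows, 42609 genes, 42607 of them in the RefSeq table of O_niloticus_UMD_NMBU). A gene was tested with 10 counts, scaled to library size, in 6 libraries and 15 in all. Values were log2 CPM (own TMM code, pseudocount 0.5), so that fold changes of low genes are understated. Group differences came from limma 3.58.1 (R 4.3.3, trend, robust, group alone), since the files' tab-separated layout could not be read as counts by the unit check in use. Scripts were tested on simulated data.

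Correlations and spread were tested by exact permutation within groups or pairs (between groups for the spread), or with 100000 permutations (20000 for library measures), two-sided, in Python 3.11.15 with SciPy 1.17.1. With 6 pairings the smallest p is 0.00139. Pairing follows the labels; deviations of the fish of a pair from their group means correlated by -0.10 to 0.21 (mean 0.04, against -0.01 for other wild and domesticated libraries). The 4 genes, the 17 lists and the tests were chosen with earlier results of these data known. Named were the 4 genes, their family relatives with counts, up to 4 called genes per list and direction with the smallest p, and the 5 genes most alike each of the 4 (unnamed loci left out); genes named beyond these (8 further glucocorticoid targets, tsc22d3, mt2, pdk4, fkbp5 by library, hsp90aa1.1, nr3c1, nr3c2, atf4a, atf4b, chac1, foxo3b, slc7a3a, xpot, sars1, lcp1, mtor, rptor, tsc2, akt1 and akt2) were picked after their values were seen. Alternatives were other scalings, filters, pseudocounts, limma settings, the replicate block and each library left out. Precision is limited for genes of few counts, and reads carry no molecular identifiers. Near-identical gene copies may share reads.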

Additional observations from a re-analysis of the deposited data

Results flagged for a closer look

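The level of ddit4 in W72 stood apart from the other 5 wild fish. Its gap to the nearest of them was 0.647 of the group's range on the log2 scale, above the 95% critical value of Dixon's test for 6 samples, with 16.9 CPM in W72 and at least 93.4 CPM in the other wild fish. Chance marks about 1 in 20 groups in this way, and 8 groups were examined. Without W72 the log2 fold change of ddit4 was -2.86.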

How the results depend on the processing

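The log2 fold changes of the 4 genes kept their sign under all 21 alternatives, and 4 of 4 were called except for ddit4 in the cases named above (3 of 4). The alternatives used the same libraries in which the 4 genes were chosen, so nothing is read from this. With the replicate block, which follows the pairing, 1062 genes were called in place of 1112 (911 shared), 4 ATF4 genes were lower in place of 2, and beyond the calls given above irs2b, in the glucocorticoid and insulin lists, and 4 markers of fibroblasts and endothelium gained calls, while dusp1, psph, sars1 and fbln1 lost theirs. Without scaling of totals 680 genes were called and 0 ATF4 genes were higher. When totals did not count the 10 most abundant genes, 19 glucocorticoid targets, 4 ATF4 and 8 insulin genes were lower and 2 ATF4 genes higher. Without a filter on low counts 6 glucocorticoid, 3 insulin and 0 mTORC1 genes were lower (352 of all genes). Among genes averaging 5 CPM or more 4 ATF4 genes were lower. Without scaling, correlations passed in domesticated fish for cebpb with trib3 (r = 0.996), cebpb with klf9 (0.88) and klf9 with trib3 (0.87), in wild fish for cebpb with ddit4 (0.83), and between the fish of a pair for klf9 (0.91) and trib3 (0.94). The last 2 also passed when totals did not count the most abundant genes (0.92 and 0.95). In domesticated fish cebpb with ddit4 turned to -0.12 without scaling and -0.16 without those genes. Without the 2 farthest libraries, which left 4 in a group, several r turned. In domesticated fish r was then -0.18 for cebpb with klf9, -0.68 for cebpb with ddit4 and -0.63 for klf9 with trib3. In wild fish it was then -0.66 for cebpb with trib3, -0.081 for klf9 with ddit4 and -0.79 for ddit4 with trib3. The cause of these changes was not tested.

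With 1 library left out at a time, 614 (without D70) to 1331 (without W63) genes were called, with 620 without D72, 656 without W66 and 681 without W70. Glucocorticoid targets called lower ranged from 3 (without D72) to 17 (without W72), ATF4 genes called lower from 1 (without W66, D68 or D70) to 7 (without W63), insulin genes from 3 (without D70 or D72) to 6 (without W72) and mTORC1 genes from 0 (without D72) to 5 (without D53), with 1 without W63, W66, W70 or D70. ATF4 genes called lower were 4 without D53. ATF4 genes called higher ranged from 5 to 9 (without W63). In domesticated fish r ranged from -0.50 (without D66) to 0.56 for cebpb with klf9, from -0.44 (without D66) to 0.69 for cebpb with ddit4, from -0.47 (without D66) to 0.96 for klf9 with ddit4 and from -0.85 to 0.73 (without D53) for ddit4 with trib3. In wild fish it ranged from -0.44 (without W72) to 0.72 for cebpb with trib3 and from -0.55 (without W72) to 0.66 for ddit4 with trib3. Between the fish of a pair it ranged from -0.45 (without pair 66) to 0.39 for cebpb, and from 0.78 to 0.94 (without pair 66, adjusted exact permutation p = 0.0333) for klf9. The difference in spread, domesticated minus wild, ranged from -0.95 to -0.51 for cebpb, from -0.13 to 0.25 for klf9, from -0.15 to 0.53 for ddit4 and from -0.064 to 0.52 for trib3, the last 3 turning negative without D53 and the first 2 of those also without D66. These fits of the spread, and the likeness under other scalings, were chosen after seeing the data. The 12 libraries and the few reads of trib3 in domesticated fish limit the precision of each correlation.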
